A study of Mus musculus with 8 samples.

Results

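Distal intergenic tiles are the 200 bp windows of changed DNA methylation that lie farthest from genes. They were taken from 8 tables of windows that gained or lost methylation in mouse colon organoids, as the autosomal tiles that overlap no protein-coding gene of the RefSeq annotation of GRCm38.p6 and lie more than 50 kb from the nearest. The rule kept 8068 of 52403 distinct autosomal tiles, or 15.4%. Of the remaining tiles, 30892 overlapped a gene and 13443 lay between genes but within 50 kb of one. The median distance of a distal tile from its nearest gene was 137 kb and the greatest was 2214 kb.

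The DNA came from organoids, self-renewing epithelial cultures, grown from the proximal 2.5 cm of the colon of male mice about 40 days old. All mice carried a heterozygous BrafV600E allele that Cre recombinase activates (Braf+/LSL); BrafV600E is a constitutively active form of the BRAF kinase, common in serrated colorectal tumours. BrafV600E organoids had received lentiviral Cre and were grown in Base medium, without the niche factors Wnt3a, R-Spondin, Noggin and EGF, at 5 months of culture. Their controls carried the empty lentiviral backbone in full medium at 5 months. Long-cultured empty-vector organoids, at 12 months in line 1 and 14 months in line 3, were set against 2-month empty-vector cultures of that line. For all 8 libraries the labels also give a final culture period of 3 weeks. Each of the 4 groups holds 1 library of organoid line 1 and 1 of organoid line 3. The 4 within-line comparisons therefore share no library, and each sets 1 library against 1 library. Oncogene, Cre vector and medium changed together with BrafV600E, so their effects cannot be told apart. The fields of 2 libraries conflict: the line 3 library titled 14 months is tagged 2 months elsewhere, and the line 1 BrafV600E library has a source name of line 3; the titles were followed. The material is bulk DNA of whole cultures, so a change within cells and a change in the mix of cells cannot be told apart.

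Far from genes, mammalian DNA is CpG-poor and mostly methylated, and such stretches are known to lose methylation in ageing cells and in tumours. Short unmethylated CpG islands and enhancers stand within them, and islands near developmental genes are known to gain methylation in tumours. Reduced representation bisulfite sequencing reads fragments cut at CCGG sites, so it sees islands densely and open intergenic DNA thinly.

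Some distal tiles lie on the starts of non-coding genes, among them long non-coding RNA (lncRNA) genes, for which promoter sequence was at hand. The 7 RefSeq promoter windows below each run from 250 bases before to 50 after an annotated start, 5′ to 3′ on the gene's strand. Capitals mark CpG dinucleotides, the sites at which methylation is read. They were chosen after the values were seen, because each is overlapped in part by a tile that changed in the same direction in both organoid lines. Tiles at the first 4 gained methylation with BrafV600E, the tile at Gm33931 lost it with BrafV600E, and the tiles at the last 2 lost it in long culture. Their positions in GRCm38.p6 are chr12:105336743-105337042 on the plus strand for Tunar, chr13:83721131-83721430 on the plus strand for C130071C03Rik, chr12:118530144-118530443 on the minus strand for D230030E09Rik and chr11:26210527-26210826 on the minus strand for 5730522E02Rik. Gm33931 is at chr5:128656706-128657005 on the minus strand, Platr22 at chr1:136695961-136696260 on the plus strand and 4933440J02Rik at chr10:111594224-111594523 on the minus strand.
Tunar: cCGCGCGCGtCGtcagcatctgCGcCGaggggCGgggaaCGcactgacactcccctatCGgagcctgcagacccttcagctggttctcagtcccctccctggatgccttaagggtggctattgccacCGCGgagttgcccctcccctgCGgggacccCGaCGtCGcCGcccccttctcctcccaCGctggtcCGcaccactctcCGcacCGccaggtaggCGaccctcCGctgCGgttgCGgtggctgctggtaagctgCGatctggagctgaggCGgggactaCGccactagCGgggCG
C130071C03Rik: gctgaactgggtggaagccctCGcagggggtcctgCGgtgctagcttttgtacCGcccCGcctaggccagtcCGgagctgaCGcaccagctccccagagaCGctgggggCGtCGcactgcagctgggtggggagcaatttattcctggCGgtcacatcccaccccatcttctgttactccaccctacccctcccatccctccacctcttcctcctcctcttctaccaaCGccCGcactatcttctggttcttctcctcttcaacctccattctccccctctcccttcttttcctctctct
D230030E09Rik: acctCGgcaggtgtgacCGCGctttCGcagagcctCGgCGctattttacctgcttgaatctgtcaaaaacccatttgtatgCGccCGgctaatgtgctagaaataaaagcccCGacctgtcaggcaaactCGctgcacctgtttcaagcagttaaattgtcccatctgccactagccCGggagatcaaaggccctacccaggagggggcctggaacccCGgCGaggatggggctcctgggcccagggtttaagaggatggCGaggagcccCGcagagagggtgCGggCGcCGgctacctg
5730522E02Rik: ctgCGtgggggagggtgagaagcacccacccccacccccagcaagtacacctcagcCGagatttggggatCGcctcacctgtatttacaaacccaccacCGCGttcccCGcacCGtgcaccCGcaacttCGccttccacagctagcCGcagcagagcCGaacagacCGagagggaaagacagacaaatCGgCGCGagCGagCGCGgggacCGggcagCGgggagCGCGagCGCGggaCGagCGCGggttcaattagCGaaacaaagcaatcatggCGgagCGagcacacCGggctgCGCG
Gm33931: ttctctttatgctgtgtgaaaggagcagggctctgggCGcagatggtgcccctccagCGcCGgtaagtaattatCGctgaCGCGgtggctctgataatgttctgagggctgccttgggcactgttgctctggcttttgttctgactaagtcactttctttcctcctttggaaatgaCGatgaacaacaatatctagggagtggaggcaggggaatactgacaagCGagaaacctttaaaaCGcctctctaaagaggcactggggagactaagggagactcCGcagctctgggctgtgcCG
Platr22: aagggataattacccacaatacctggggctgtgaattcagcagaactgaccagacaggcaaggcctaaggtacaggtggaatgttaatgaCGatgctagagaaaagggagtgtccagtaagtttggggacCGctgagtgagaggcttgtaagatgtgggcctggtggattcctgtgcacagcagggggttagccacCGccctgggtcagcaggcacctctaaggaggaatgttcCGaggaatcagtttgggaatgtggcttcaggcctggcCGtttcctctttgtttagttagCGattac
4933440J02Rik: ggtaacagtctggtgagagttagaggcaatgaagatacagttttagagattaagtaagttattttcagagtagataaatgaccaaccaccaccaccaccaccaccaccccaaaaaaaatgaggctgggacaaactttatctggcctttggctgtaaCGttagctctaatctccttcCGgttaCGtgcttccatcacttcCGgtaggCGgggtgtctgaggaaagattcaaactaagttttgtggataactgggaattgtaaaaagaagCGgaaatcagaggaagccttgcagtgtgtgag
The windows differ in CpG content: 5730522E02Rik holds 33 CpG sites, Tunar 30, D230030E09Rik 18, C130071C03Rik 12 and Gm33931 11, while Platr22 and 4933440J02Rik hold 6 each. The tile that changed in both lines overlapped only 43 bases of the 300 at D230030E09Rik and at most 177, at 4933440J02Rik. In the order of the CpG counts, the overlaps held 12, 9, 6, 4, 4, 2 and 6 of these CpG sites.

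The values below are methylation differences in percentage points from the authors' deposited tables, the BrafV600E or long-cultured library minus its control. Each table lists only tiles that differ by at least 20 points with a q-value of at most 0.01, and gives no read counts, so depth is unknown and no interval can be given for a tile. A share of gains below is the share of a table's listed tiles in which methylation was higher in the BrafV600E or long-cultured library. Its exact Clopper-Pearson 95% interval covers counting of tiles only. Across the 4 comparisons the tables list from 8119 to 29437 autosomal tiles. Distal tiles made up 11.6% of these with BrafV600E in line 1 and 17.8% in line 3, and 11.8% in line 1 and 11.1% in line 3 in long culture. For scale, 35.5% of the autosomal length between the first and last gene of each chromosome lies more than 50 kb from a protein-coding gene; which tiles the assay could read was not used here.

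Loss of methylation was more frequent among distal tiles than among the other tiles in all 4 comparisons. With BrafV600E in line 1, 874 distal tiles gained and 875 lost methylation, a share of gains of 50.0% (47.6 to 52.3%), against 69.9% of the other tiles and 67.6% of all autosomal tiles. With BrafV600E in line 3, 1159 gained and 4093 lost, or 22.1% gained (21.0 to 23.2%), against 44.3% of the other tiles and 40.4% of all. In long culture, 173 distal tiles gained and 781 lost in line 1, or 18.1% gained (15.7 to 20.7%), against 44.0% of the other tiles and 41% of all. In line 3 long culture, 1249 gained and 1092 lost, or 53.4% gained (51.3 to 55.4%), against 74.1% of the other tiles and 71.8% of all. The distal share was thus lower both in the tables where gains prevailed and in those where losses did.

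The distal share of gains minus the share in the other tiles was -19.9 and -22.3 points with BrafV600E in lines 1 and 3, and -25.9 and -20.8 points in long culture in lines 1 and 3. Its mean was -22.2 ± 2.63 points (SD, n = 4 comparisons), lower in 4 of 4. The exact two-sided sign-flip permutation p was 0.125, the smallest that 4 comparisons allow. Here and below, the SD and p take the comparisons as independent. Lines 1 and 3 each gave a BrafV600E and a long-culture comparison, so the 4 are not separate replicates. Leaving out both comparisons with conflicting labels, an alternative chosen after seeing the data, gave a mean of -24.1 points. Set only against intergenic tiles within 50 kb of a gene, whose shares were 65.0%, 40.2%, 35.2% and 64.1% in the same order, the mean was -15.2 ± 3.25 points (SD, n = 4), also with an exact permutation p of 0.125. The gap therefore did not rest on tiles inside genes alone.

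Strength of evidence per tile also moved with this split. Among tiles with a difference of 40 to 60 points in either direction, the median −log10 p in the authors' deposited tables was 4.77 at distal and 6.07 at other tiles with BrafV600E in line 1, and 4.96 and 5.83 in line 3. In long culture it was 4.47 at distal and 5.35 at other tiles in line 1, and 4.75 and 8.33 in line 3. Within distal tiles it was 5.05 for gains and 4.40 for losses with BrafV600E in line 1, 5.03 and 4.94 in line 3, and in long culture 4.97 and 4.40 in line 1 and 5.33 and 4.36 in line 3. At a like difference, a smaller −log10 p goes with fewer reads; the part of this in the share of gains was not tested.

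**Figure D1:**
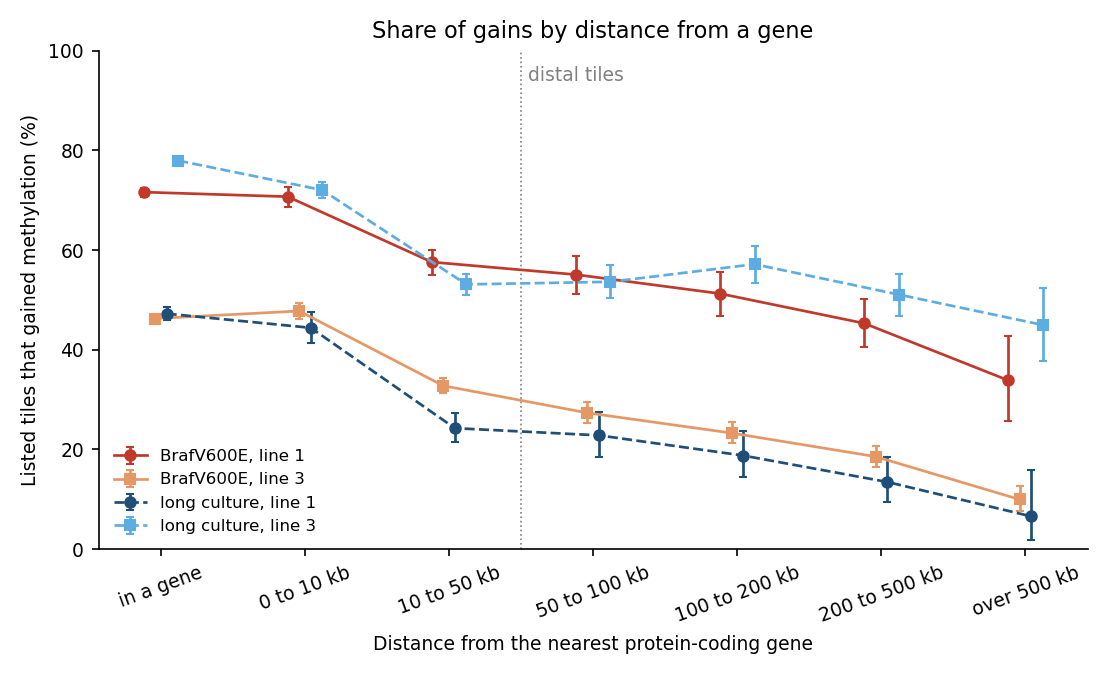
Share of listed tiles that gained methylation (vertical axis, percent) by distance from the nearest protein-coding gene (horizontal axis, bins in kb), with exact 95% intervals, for the 4 comparisons. With BrafV600E in line 3 the share was 27.3% at 50 to 100 kb and 9.95% beyond 500 kb; in line 3 long culture the distal bins lay between 45% and 57.2%.

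The direction also varied with distance among the distal tiles themselves. The bins of 50 to 100, 100 to 200, 200 to 500 and over 500 kb held 2889, 2375, 2046 and 758 distinct tiles. With BrafV600E in line 1 the share of gains in these bins was 55.1%, 51.3%, 45.3% and 33.9%, and in line 3 it was 27.3%, 23.3%, 18.6% and 9.95%. In line 1 long culture it was 22.8%, 18.8%, 13.5% and 6.56%, the last from 4 gains among 61 tiles. In line 3 long culture it was 53.6%, 57.2%, 51.1% and 45%, with no steady fall over the nearer bins. At the 50 kb limit itself no step was seen: 434 distinct tiles at 50 to 55 kb had 41.5% gains over all listings, and 473 tiles at 45 to 50 kb had 41.4%.

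Listed changes were slightly larger at distal tiles. With BrafV600E the median gain was 44.8 points at distal against 42.4 at other tiles in line 1, and 47.9 against 43.5 in line 3. The median loss was -46.7 against -43.5 in line 1 and -49.4 against -45.4 in line 3. In long culture the median gain was 48.0 at distal against 38.9 at other tiles in line 1 and 45.8 against 43.9 in line 3, and the median loss -50.7 against -46.2 in line 1 and -47.9 against -45.5 in line 3. These are medians of tiles that had already passed the authors' limits, and a tile with fewer reads needs a larger difference to pass them. Tiles that differed by the full 100 points, which needs 0% in a library and 100% in the other, numbered 28 and 113 with BrafV600E and 26 and 91 in long culture in lines 1 and 3. They were 1.60% of distal against 1.23% of other tiles with BrafV600E in line 1 and 2.15% against 1.7% in line 3, and in long culture 2.73% against 1.37% in line 1 and 3.89% against 1.90% in line 3.

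Distal tiles, gained and lost, mostly stood alone. When tiles within 500 bp were merged into regions, a distal gained region held 1.09 and 1.14 tiles on average with BrafV600E and 1.08 and 1.13 in long culture in lines 1 and 3. Gained regions among the other tiles held 1.44, 1.40, 1.38 and 1.81 in the same order. Lost regions differed less, with 1.03, 1.07, 1.03 and 1.03 tiles among distal and 1.14, 1.14, 1.08 and 1.05 among other tiles. Distal gained regions of 3 or more tiles numbered 9, 25, 1 and 27, or 1.12%, 2.44%, 0.625% and 2.44% of distal gained regions. Among other gained regions these shares were 10.6%, 8.78%, 8.10% and 18.5%. Distal lost regions of that size numbered 1, 20, 0 and 1, or 0.118%, 0.525%, 0% and 0.0948%. Among other lost regions the shares were 2.32%, 2.21%, 1.28% and 0.480%. By regions the distal share of gains was 48.8%, 21.2%, 17.4% and 51.2%, and the mean gap to the other regions was -16.7 points.

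Most distal tiles were listed in a single comparison: 6190 in 1, 1558 in 2, 290 in 3 and 30 in all 4. Whether a tile moved the same way in both organoid lines is the only replicate check these data allow. With BrafV600E, 663 distal tiles were listed in both lines, which is 37.9% of the distal list of line 1 and 12.6% of that of line 3. Over all autosomal tiles these shares were 38.9% and 19.9%. Of the 663 distal tiles, 177 gained in both, 295 lost in both, 138 had a gain in line 1 with a loss in line 3, and 53 the opposite. The direction matched in 472, or 71.2% (67.6 to 74.6%), against 74.1% of all autosomal tiles listed in both. Gains in both lines made up 26.7% of the 663, against 50.6% of all tiles, and losses in both lines 44.5%, against 23.4% of all. A distal tile that gained in line 1 gained in line 3 in 56.2% of cases, and 1 that lost in line 1 gained in line 3 in 15.2%.

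In long culture 226 distal tiles were listed in both lines, 23.7% of the line 1 list and 9.65% of the line 3 list. Over all autosomal tiles these shares were higher, at 39.0% and 15.0%. Among the 226 distal tiles, gains in both numbered 44 and losses in both 86, while 11 had a gain in line 1 with a loss in line 3 and 85 the opposite. The direction matched in 130, or 57.5% (50.8 to 64.1%), against 68.7% of all autosomal tiles. Gains in both lines were 19.5% of the 226, against 54.6% of all tiles, and losses in both 38.1%, against 14% of all. Distal tiles that held their direction across lines were thus mostly losses, whereas over all tiles they were mostly gains.

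**Figure D2:**
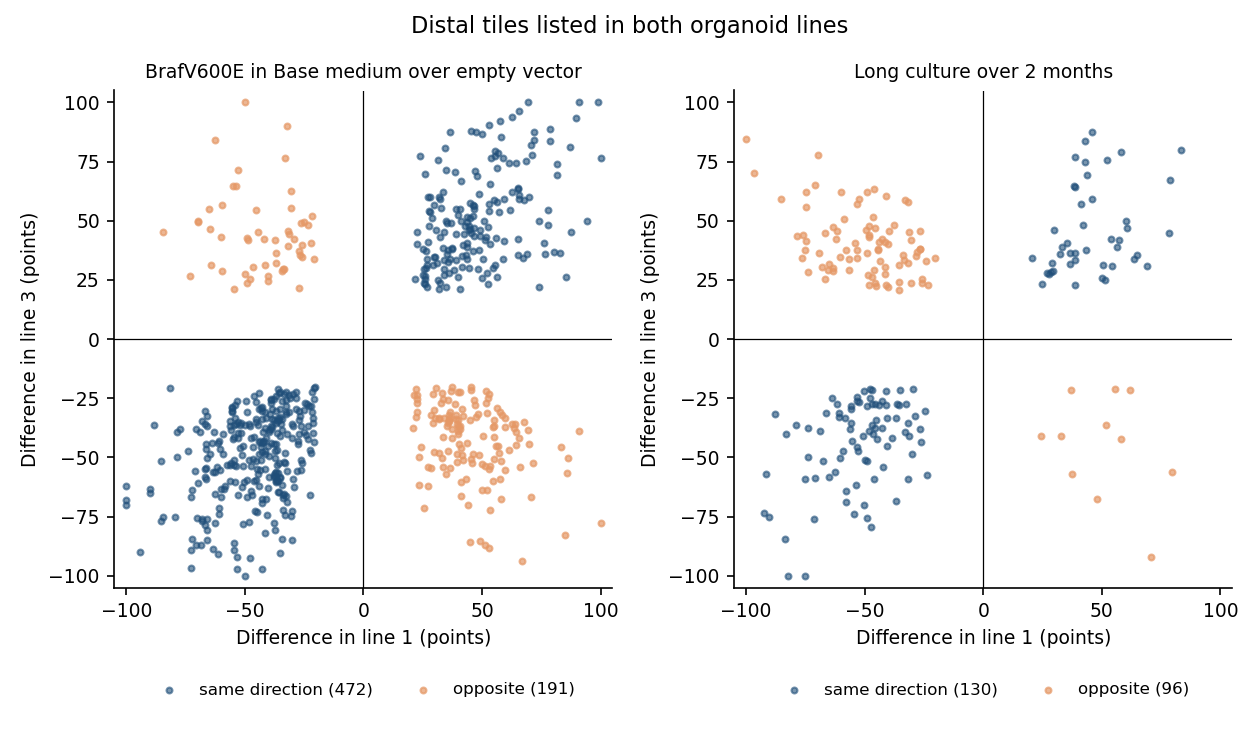
Methylation difference of each distal tile listed in both organoid lines, line 1 on the horizontal axis and line 3 on the vertical axis (percentage points), for BrafV600E over empty vector (left) and long culture over 2 months (right). Same-direction tiles number 472 and 130 and opposite tiles 191 and 96; no point lies within 20 points of 0 because of the authors' limit.

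Sizes matched only loosely between lines. With BrafV600E the tiles gained in both had median differences of 46.0 points in line 1 and 47.6 in line 3, and the median distance between the lines' values was 11.2 points. Those lost in both had medians of -43.3 and -46.9 points, 13.0 points apart. In long culture the tiles gained in both had medians of 42.9 and 38.9 points, 14.5 apart, and those lost in both -50.2 and -39.0 points, 15.8 apart. Differences of at least 60 points in both lines were found in 24 gained and 32 lost tiles with BrafV600E, and in 2 gained and 6 lost tiles in long culture.

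The distal tiles with the largest gains in both BrafV600E lines lay near the transcription factor genes Klf5 and Foxa2, among others. Klf5 drives proliferation of intestinal crypt cells. The tile at chr14:99393601-99393800, 80.2 kb from Klf5, gained 99.0 points in line 1 and 100 in line 3. The adjoining tile at chr14:99393401-99393600 gained 86.9 and 81.1 points, and in long culture 33.3 and 38.8 points, so it gained in all 4 comparisons. A tile 53.0 kb from Klf5 gained 69.6 and 100 points with BrafV600E. The direction was not the same across the interval: 136.0 kb from Klf5 a tile had differences of -49.2 and -66.7 points with BrafV600E in lines 1 and 3 and -59.9 in line 3 long culture.

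Foxa2 encodes a forkhead factor of the gut endoderm. The tile at chr2:147968801-147969000, 73.9 kb from Foxa2 and inside the lncRNA gene 9030622O22Rik, gained 100 points in line 1 and 76.5 in line 3 with BrafV600E. The other leading gains lay 52.1 kb from Unc5d, a netrin receptor gene, at 90.9 and 100 points, and 65.2 kb from Capza3, an actin-capping gene of the testis, at 89.7 and 93.3 points. Further tiles near Atp2b1, a calcium pump gene, gained 78.7 and 83.5 points, and near Enc1 78.6 and 88.7 points. A tile between Hibadh and the homeobox gene Evx1 gained 81.5 and 73.9 points. None of these tiles except the adjoining Klf5 tile was listed in long culture.

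The largest loss in both BrafV600E lines was at chr16:93006601-93006800, 180.5 kb from Runx1, which encodes a transcription factor of blood formation. Its difference was -94.0 points in line 1 and -89.9 in line 3. Tiles with differences of -70.8 points or beyond in both lines also lay near Ipmk, Phf2, Vps13c, Nova1, Ednrb, Tbc1d2b and Sorcs1. Ednrb is the endothelin receptor that enteric nerve precursors need, and its tile, 93.5 kb away, had differences of -72.7 and -89.1 points. The Ipmk tile had differences of -85.2 and -76.7 points with BrafV600E but gained 71.3 points in line 3 long culture.

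In long culture the leading gains were a tile 145.2 kb from Prdm2, at 83.3 points in line 1 and 80 in line 3, and a tile 166.2 kb from Nrip1, a nuclear receptor corepressor gene, at 78.7 and 67.0 points. The Nrip1 tile also gained 56.8 points with BrafV600E in line 1. A tile 60.5 kb from Tbx4, a limb and lung T-box gene, gained 57.9 and 78.9 points. Of the 2 distal tiles near Tbx4, the other lost methylation in line 3 long culture. A tile between Insig2 and the homeobox gene En1 gained 52.1 and 75.7 points. A tile inside the neural lncRNA gene Rmst, 522 kb from Nedd1, gained 45.8 and 87.5 points. Near Mycn and Rapgef2 the gains were 60 and 50 points, and 45.8 and 59.2 points. A tile 75.6 kb from Pax2, a kidney and eye paired-box gene, gained 60.4 and 47.0 points, against a difference of -36.3 points with BrafV600E in line 3.

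The leading losses in long culture were larger than these gains. Near Smad2, a TGF-beta signal transducer gene, a tile on chromosome 18 had differences of -83.7 points in line 1 and -84.6 in line 3. Near Ifne, an epithelial interferon gene, the differences were -82.4 and -100 points. The tile 72.3 kb from the homeobox gene Nkx1-1 had differences of -75 and -100 points, yet gained 85.7 points with BrafV600E in line 3. Other such losses lay near Auts2, at -90.5 and -75 points, and Adcy2, at -92.5 and -73.3 points. Near Robo1, the Slit receptor gene, a tile had differences of -71.3 and -76.0 points but gained 49.3 with BrafV600E in line 1. The tile near Celf2 had differences of -75 and -59.3 points, and that near Gatb -70.8 and -58.7 points.

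Of the 30 distal tiles listed in all 4 comparisons, 3 gained in all, 3 lost in all and 5 moved 1 way in both BrafV600E comparisons and the other way in both long-culture comparisons. No single pattern of directions held more than 4 tiles, and 1 that differed between the lines in both contrasts also held 4. Such counts over all autosomal tiles were not made. Beside the Klf5 tile, the tile at chr7:70281601-70281800, 70.1 kb from the nuclear receptor gene Nr2f2 and inside the lncRNA gene Gm29683, gained 35.5 and 37.6 points with BrafV600E and 36.3 and 31.8 points in long culture. A tile near Trib1, a pseudokinase gene, had differences of -41.3 and -48.7 points with BrafV600E and -49.0 and -51.7 points in long culture. At a tile 894 kb from Tbc1d32 the differences lay between -47.0 and -34.1 points in the 4 comparisons. Opposite directions were found near Zfp703, a transcriptional repressor gene, where a tile gained 46.0 and 37.1 points with BrafV600E and stood at -62.4 and -56.1 points in long culture. Tiles near Hsd17b3, Adgrl2 and Rragc also gained with BrafV600E, by 23.3 to 37.0 points, and lost in long culture, with differences from -61.8 to -26.7 points.

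The neighbourhood of Nr2f2, viewed after its values were seen, held 10 distal tiles. Between 68.7 and 72.1 kb from the gene, 7 of them lie within Gm29683. With BrafV600E in line 3 all 7 gained, by 37.6 to 77.2 points, and in line 1 the 3 that were listed gained 23.8 to 36.9 points. In line 3 long culture 5 of the 7 were listed and gained 31.8 to 56.2 points. Farther out, 772 kb from Nr2f2, the direction was the reverse, and the tile at chr7:69580001-69580200 had differences of -47.2 points with BrafV600E and -54.4 in long culture in line 3. Near the homeobox gene Msx2 a like mix was seen among 16 tiles. With BrafV600E all 6 tiles listed in line 1 gained, and 9 of 11 in line 3. In long culture the 2 listed in line 1 lost and the 2 listed in line 3 gained. Msx2 was likewise viewed after its values were seen, and some factors with as many tiles or more mostly lost. Over the 4 comparisons Sall3 had 7 gained and 28 lost listings, Zfhx3 4 and 16, and Foxf1 4 and 14.

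Distal tiles whose nearest gene belongs to a list of developmental transcription factors, which pattern tissues and are frequent neighbours of gene-poor intervals, numbered 675 and lay by 115 of the list's 291 genes. Their share of gains was 62.4% with BrafV600E in line 1 (108 of 173) and 27.2% in line 3 (112 of 412), against 50.0% and 22.1% of all distal tiles. In long culture it was 23.2% in line 1 (19 of 82) and 59.3% in line 3 (144 of 243), against 18.1% and 53.4%. The list's share was above that of all distal tiles in each of the 4 comparisons at the 50 kb limit, but not under every alternative. Beyond 100 kb it was 51.9% against 53.2% of all distal tiles in line 3 long culture, and far from genes of every kind it was 42.9% against 45.1% with BrafV600E in line 1 and 11.1% against 15.2% in line 3, from 14 and 36 tiles near these factors. More of its genes had more lost than gained listings (66) than the reverse (41), with 8 equal.

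The tiles near these factors had a median distance of 127 kb, against 137 kb for all distal tiles, so their shares were also set out by distance. At 50 to 100 kb the share of gains was 62.2% near these factors against 54.2% of other distal tiles with BrafV600E in line 1, 30.3% against 27.0% in line 3, 23.5% against 22.7% in line 1 long culture and 68.5% against 51.6% in line 3 long culture. At 100 to 200 kb, in the same order, it was 68.8% against 49.5%, 27.2% against 22.9%, 33.3% against 17.5% and 58.9% against 57.0%. At 200 to 500 kb it was 60% against 43.6% and 25.2% against 18% with BrafV600E, but 13.0% against 13.5% and 40.7% against 52.2% in long culture. Beyond 500 kb the factors' tiles numbered 6, 25, 1 and 8; the 25 with BrafV600E in line 3 had 16% gains against 9.66%, and the other comparisons hold too few to describe. With BrafV600E the share was thus higher near these factors at each distance up to 500 kb. In long culture it was higher up to 200 kb, but on few tiles or by small margins in places. The line 1 values there rest on 8 gains among 34 tiles and 8 among 24, and the difference between the groups was not tested.

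Single factors differed widely. Foxl1, a forkhead gene of the gut mesenchyme, and Sall3 had 25 tiles each, followed by Irx5 with 21, Pou3f1 with 20 and Pax2 with 18. At Pax2, line 3 long culture held 11 gains and no loss, but losses outnumbered gains in the other comparisons. There were 1 gain and 3 losses with BrafV600E in line 1, and 3 and 7 in line 3. Line 1 long culture held 1 gain and 3 losses. At Barhl2, a neural homeobox gene, 9 tiles gave 12 losses and no gain.

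Genes of cell adhesion and synapses, such as cadherins and axon guidance receptors, are long and stand in gene-poor DNA. They were nearest to 502 distal tiles, at a median distance of 301 kb. Their share of gains was 46.5% and 17.4% with BrafV600E and 15.1% and 46.2% in long culture in lines 1 and 3. These shares were below that of all distal tiles in each comparison. Distal tiles at 200 to 500 kb from any protein-coding gene had 45.3%, 18.6%, 13.5% and 51.1% gains in the same order. This list was not set out by distance, and the part of distance in its lower shares was not tested. Zinc finger genes were nearest to 199 tiles, with shares of 66.0%, 21.1%, 19.4% and 60%. Predicted genes without an established name were nearest to 530, with shares of 44.6%, 15.3%, 24.6% and 56.0%. Odorant, vomeronasal and taste receptor genes, 1508 in the annotation, were nearest to 29 tiles, and with BrafV600E in line 3 none of the 23 listed there had gained.

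**Figure D3:**
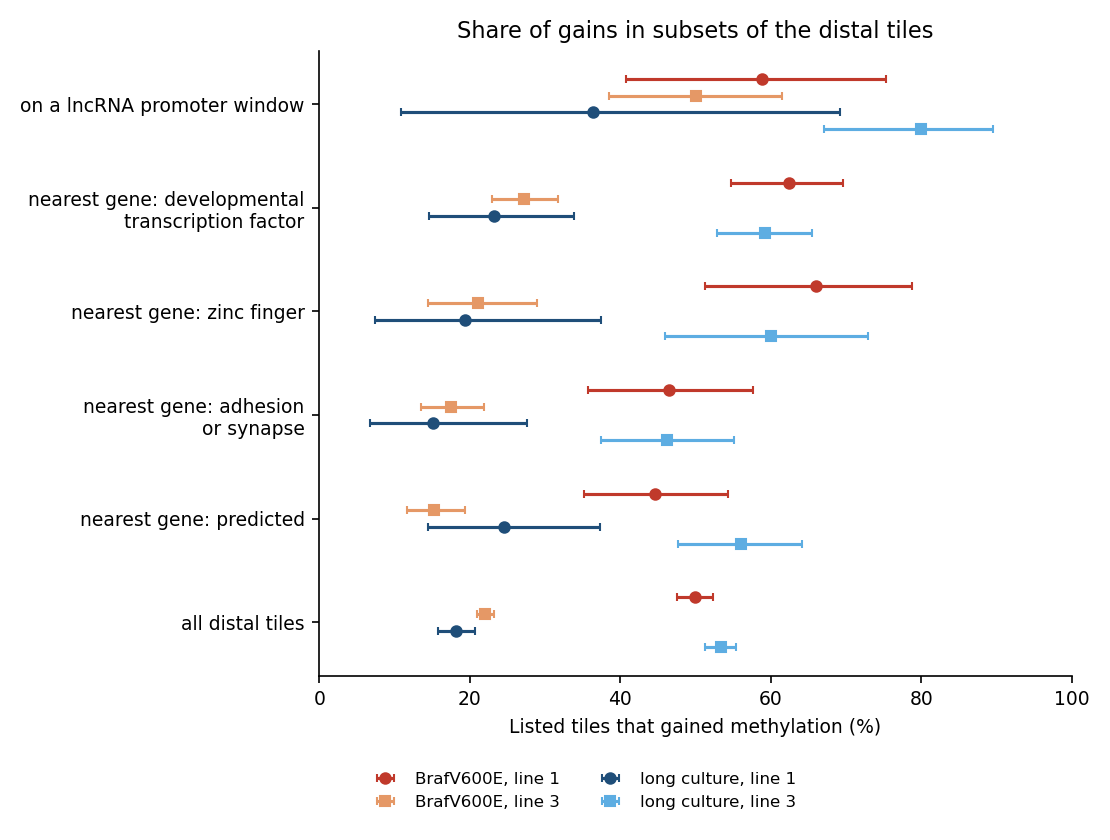
Share of listed distal tiles that gained methylation (horizontal axis, percent) for subsets of the distal tiles and for all of them, with exact 95% intervals, by comparison. Tiles on promoter windows of non-coding genes, labelled lncRNA in the figure, reached 50.0% with BrafV600E and 80% in long culture in line 3. All distal tiles there reached 22.1% and 53.4%.

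Far from protein-coding genes is not the same as outside genes. Of the 8068 distal tiles, 1821 (22.6%) overlapped a non-coding gene, among them 1582 in 945 lncRNA genes and 156 in pseudogenes. The share of gains in non-coding genes was 54.8% and 29.3% with BrafV600E and 25.8% and 58.9% in long culture in lines 1 and 3. In tiles outside any gene it was 48.5% and 20.0% with BrafV600E and 15.8% and 51.6% in long culture. The lncRNA genes with most tiles, listed after their values were seen, were Gm33655 with 14, A930011G23Rik with 13, and Gm2164 and Gm30382 with 11 each. In Gm30382, which lies in the interval of Adgrl2, there were 3 gains and 1 loss with BrafV600E in line 1 and 6 gains and no loss in line 3, while in long culture there were 2 losses in line 1 and 5 in line 3 with no gain.

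On promoter windows of non-coding genes the share of gains was higher than at the other distal tiles in each comparison. The windows were of all annotated genes that are not protein-coding, so not of lncRNA genes alone. Of 3269 such windows lying over 50 kb from protein-coding genes, 112, of 103 genes, were touched by 126 distal tiles. With BrafV600E these tiles gained in 20 of 34 listings in line 1 (58.8%) and 39 of 78 in line 3 (50.0%), against 49.8% and 21.6% of the remaining distal tiles. In long culture they gained in 4 of 11 in line 1 (36.4%) and 44 of 55 in line 3 (80%), against 17.9% and 52.7%. The intervals of the promoter tiles overlapped those shares in both line 1 comparisons and not in line 3. No test was made of this split, which was chosen after values were seen.

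**Figure D4:**
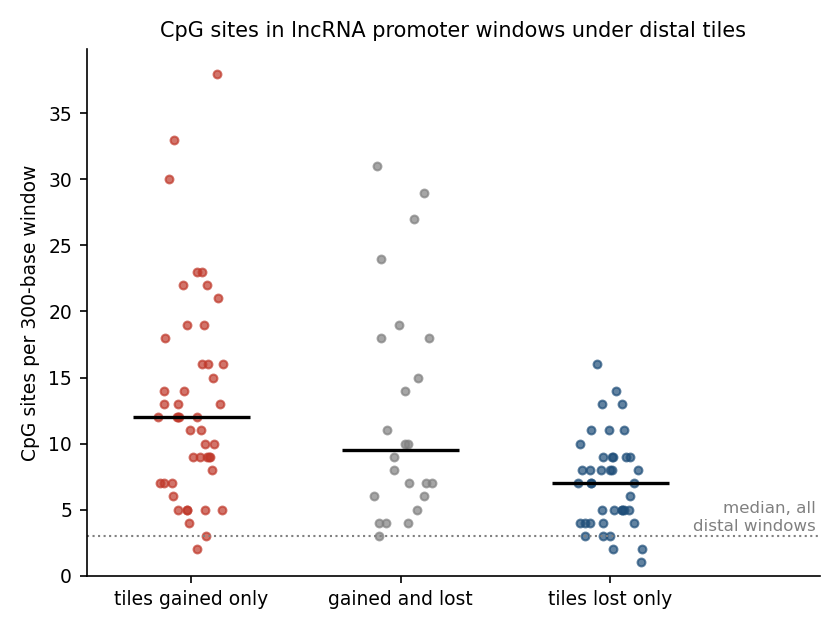
CpG sites in each 300-base promoter window of a non-coding gene (vertical axis) under a distal tile, labelled lncRNA in the figure. Windows are split into those whose tiles only gained, both gained and lost, or only lost methylation. Bars are medians and the dotted line is the median of all distal windows. The medians are 12, 9.5 and 7, above the 3 of all distal windows.

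Windows whose tiles gained were richer in CpG. The 47 windows with gains only held a median of 12 CpG sites and 61.7% held 10 or more, against a median of 7 and 19.5% in the 41 windows with losses only. All 3269 distal windows had a median of 3 and 6.49% with 10 or more. The CCGG site at which the assay's fragments begin and end, searched by those letters, which read the same on both strands, was in 91.5% of the gained windows and 82.9% of the lost ones, against 23.6% of all distal windows. The assay reads fragments between CCGG sites, and which windows it covered was not used here, so its part in the step from all windows to listed windows was not tested.

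Among the printed windows, the Tunar tile gained 43.6 points in line 1 and 49.3 in line 3 with BrafV600E and 65.5 in line 3 long culture. Tunar is a lncRNA of pluripotent and neural cells, and its tile covers 9 CpG sites of the printed window. The gene as a whole held 8 distal tiles, and with BrafV600E in line 3 it had 4 gains and 4 losses. At C130071C03Rik, the lncRNA that hosts Mir9-2, the tile gained 56.0 and 42.7 points with BrafV600E and 45.3 in line 3 long culture. The D230030E09Rik tile gained 53.3 and 40.0 points and the 5730522E02Rik tile 32.4 and 42.9 points with BrafV600E. The Gm33931 tile had differences of -37.7 and -57.5 points with BrafV600E and was not listed in long culture. In long culture the tile at Platr22, named for transcripts associated with pluripotency, had differences of -65.2 points in line 1 and -58.2 in line 3, and of -27.3 points with BrafV600E in line 3. The 4933440J02Rik tile had differences of -49.2 and -75.8 points in long culture and gained 70.9 with BrafV600E in line 3. Among the windows not printed, the others with gains in both BrafV600E lines were Gm33861, with 7 CpG sites, 5430440P10Rik and a second start of Tunar, with 11 each, C130026L21Rik with 15, Gm31138 with 16 and 4930433N12Rik with 19. The second Tunar start and C130026L21Rik each also had 1 lost listing beside 4 gained. D830026I12Rik, with 9 CpG sites, had gains in both long-culture lines. Windows gained and windows lost in both lines therefore overlapped in CpG content. The tile at 1700064M15Rik, a window with 27 CpG sites, had a difference of -20.5 points in each line with BrafV600E and gained 66.2 in line 3 long culture.

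MicroRNA genes also stand in these intervals; a microRNA is cut from a hairpin and pairs with messenger RNAs through its seed. Of 919 autosomal hairpins in the RefSeq table, 135 lie over 50 kb from protein-coding genes. Distal tiles within 2 kb were found at 16 of these, and at 3 more, Mir17, Mir18 and Mir19a of 1 cluster, that lie just under 50 kb from a gene. Hairpins on opposite strands and of a cluster are counted separately. These were 22 distinct tiles with 19 gained and 11 lost listings, pooled over the 4 comparisons. Of these listings, 8 gains lay at Mir9-2, and 5 gains and 3 losses at Mir129-2. Over all distal tiles, 50.0% and 22.1% gained with BrafV600E and 18.1% and 53.4% in long culture, in lines 1 and 3. Those shares are per comparison, so the pooled count cannot be read against them. Away from the 4 loci described below, Mir802 and Mir7216 had gains only and the other hairpins losses only. The mature RNAs of the 4 loci that follow, chosen after their values were seen, are printed 5′ to 3′ with the seed, bases 2 to 8, in capitals.
miR-9-5p: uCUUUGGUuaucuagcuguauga
miR-9-3p: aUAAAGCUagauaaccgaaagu
miR-129-5p: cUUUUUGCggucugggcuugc
miR-129-2-3p: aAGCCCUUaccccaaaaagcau
miR-137-3p: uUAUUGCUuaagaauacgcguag
miR-125b-5p: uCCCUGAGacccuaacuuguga
Each seed is different, so these RNAs fall into separate seed families.

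Mir9-2, on chromosome 13 at 71.7 kb from the nearest protein-coding gene, was the locus with most gains. The tile over the hairpin, chr13:83738801-83739000, gained 56.2 points in line 1 and 57.9 in line 3 with BrafV600E. The tile at chr13:83738601-83738800 gained 38.9 and 44.4 points with BrafV600E. Of the tiles farther upstream, that at chr13:83738201-83738400 gained 80 points with BrafV600E in line 1 and 89.1 in line 3 long culture, and that at chr13:83738001-83738200 gained 32.5 and 27.3 points in the same comparisons. All 4 tiles gained wherever they were listed. miR-9 is a microRNA of neural development, and in human colorectal tumours the MIR9 genes, MIR129-2 and MIR137 are known to acquire methylation.

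At Mir129-2, on chromosome 2, the directions were mixed. With BrafV600E in line 1 separate tiles gained 47.1, 100 and 62.5 points, and the tile next to the hairpin, chr2:94241601-94241800, stood at -33.3 points. That tile stood at -23.4 points with BrafV600E in line 3 and gained 57.7 points in line 3 long culture, and the tile over the hairpin gained 59.9 points in line 3 long culture. At Mir137 a tile gained 39.4 points with BrafV600E in line 1 and stood at -35.8 points in line 3, and another gained 36.4 points in line 3 long culture. At Mir125b-1, on chromosome 9 at 324 kb from the nearest protein-coding gene, the tile at chr9:41581201-41581400 gained 58.9 points in line 1 and 76.5 in line 3 with BrafV600E. The Mir125b-1 tile and the Mir9-2 hairpin tile thus gained in both BrafV600E lines, and the hairpin-side tile of Mir129-2 lost in both.

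**Figure D5:**
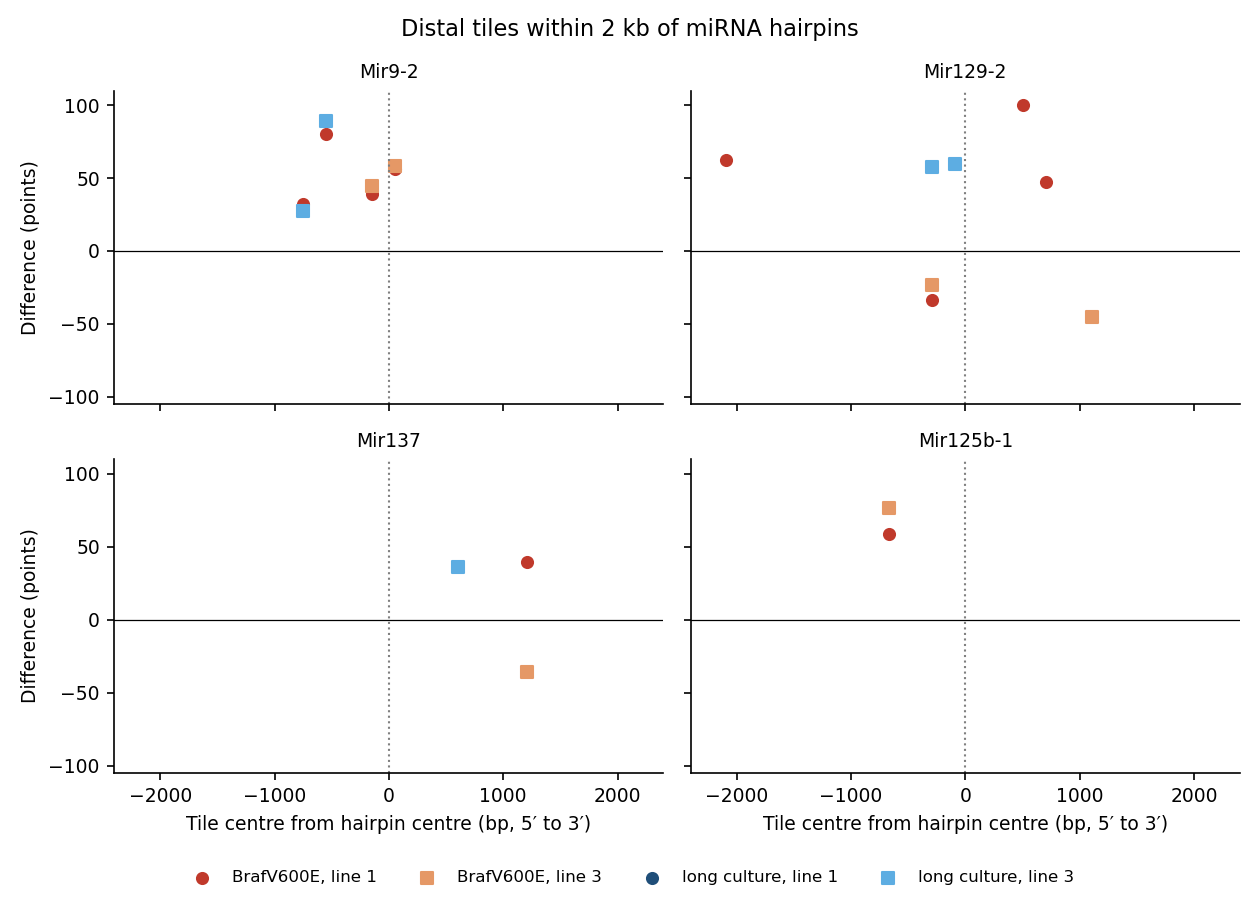
Methylation difference of distal tiles (vertical axis, percentage points) by distance of the tile centre from the hairpin centre (horizontal axis, bp, 5′ to 3′ of the gene), for Mir9-2, Mir129-2, Mir137 and Mir125b-1. All points at Mir9-2 lie above 0, between 27.3 and 89.1 points, while Mir129-2 and Mir137 have points on both sides.

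Distal tiles were spread over many intervals free of protein-coding genes. Of 2484 intervals between neighbouring protein-coding genes that are long enough to hold a distal tile, 1551 held at least 1, with a median of 3 and 390 with a single tile. The 50 fullest intervals held 1490 tiles, or 18.5%. The fullest, 789 kb between Mn1 and Cryba4 on chromosome 5, held 61 tiles. There, 13 gained and 10 lost with BrafV600E in line 1, and 7 gained and 24 lost in line 3. In long culture no tile there gained and 9 lost in line 1, while 12 gained and 6 lost in line 3. The interval of 810 kb between Nphp4 and Ajap1 on chromosome 4 held 56 tiles, with 2 gains and 8 losses with BrafV600E in line 1, 1 gain and 43 losses in line 3, no gain and 7 losses in line 1 long culture, and 4 of each in line 3 long culture.

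Between Rragc and the POU factor gene Pou3f1 on chromosome 4 were 49 tiles, with 15 gains and 3 losses with BrafV600E in line 1, 10 and 12 in line 3, 2 and 9 in line 1 long culture and 12 and 11 in line 3 long culture. Between Sdk2 and Rpl38 on chromosome 11 were 47 tiles, with 3 gains and 4 losses, 4 and 27, 0 and 5, and 12 and 1 in the same order. Between Mki67 and Mgmt on chromosome 7 were 46 tiles, with 2 gains and 3 losses, 5 and 30, 0 and 6, and 13 and 9. In each of these 5 intervals losses outnumbered gains with BrafV600E in line 3 and in line 1 long culture, the comparisons with the lowest shares of gains over all distal tiles. The tile farthest from any protein-coding gene in each comparison lost methylation in 3 of the 4. With BrafV600E it lay in the interval of Celf4 and Pik3c3 on chromosome 18 and stood at -94.1 points in line 1, at 1840 kb, and -58.3 points in line 3, at 2214 kb. In line 1 long culture it lay 1755 kb from Cdh9 and stood at -60 points, and in line 3 long culture it lay 2122 kb from Cntnap5b and gained 20.7 points.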

How the data were processed

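Reduced representation bisulfite sequencing libraries (50 bp single-end reads, about 10% phiX, per the labels' protocols) were processed on GRCm38 (mm10); the submitters' processing notes name methylKit 1.7.4, Bismark 0.14.3, Trim Galore 0.4.4 and FastQC 0.11.7. A coverage minimum and a conversion rate are not stated there. Per the file headers, the authors deposited the methylation difference of each 200 bp tile, handled as a score in percentage points, with its p-value and q-value. All 8 tables were used; the depth of each library is unknown. Replicates are organoid lines 1 and 3; the series text calls the long-cultured pair biological replicates, and for the other groups the labels do not say whether the lines are separate animals, so the spread between lines may be technical.

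Distances were measured to 20665 protein-coding genes on chromosomes 1 to 19 of the RefSeq table of GRCm38.p6, edge to edge. Shares carry exact Clopper-Pearson 95% intervals. The sign-flip test was exact over the 4 comparisons. It took them as independent, although each line gave both a BrafV600E and a long-culture comparison. The counting and the test were tested on simulated data. Tiles were named by rule: the 8 largest gains and 8 largest losses per contrast by the smaller of the lines' absolute differences, the 5 fullest intervals, up to 4 tiles of each pattern in all 4 comparisons, and the most distant tiles. Members and lists were chosen with earlier results of these data known. Alternatives were distances of 20 and 100 kb, differences of at least 40 points, q under 0.001, all gene kinds, merged tiles and leaving out a line. Python 3.11.15, pandas 2.3.3, numpy 2.4.6, scipy 1.17.1 and matplotlib 3.10.9 were used. RefSeq supplied promoter and microRNA sequences; tile sequences were not used here. Methylation data hold no expression markers, so the cell type was taken from the labels.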

Additional observations from a re-analysis of the deposited data

Results flagged for a closer look

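Distal tiles on chromosome X lie outside the autosomal comparisons. The authors' deposited tables list 30 with BrafV600E in line 1 and 125 in line 3, and 21 in line 1 and 47 in line 3 in long culture. Of these, 50.0% and 25.6% gained methylation with BrafV600E and 19% and 55.3% in long culture, beside autosomal distal shares of 50.0%, 22.1%, 18.1% and 53.4%.

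Tiles that moved in opposite directions in the organoid lines under the same contrast numbered 191 with BrafV600E and 96 in long culture. With BrafV600E, 138 of them gained in line 1 and lost in line 3; in long culture, 85 lost in line 1 and gained in line 3. With 1 library on each side of a comparison, the difference between the lines was not tested. The line 1 BrafV600E library and the line 3 library of 14 months are those whose labels conflict.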

How the results depend on the processing

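The mean gap between distal and other tiles stayed below 0 under each alternative run, from -16.7 points with merged tiles to -25.1 with distance from all gene kinds, and was -21.5 to -22.9 points when either line was left out. The distal share of gains moved beyond its counting interval in some settings. At 20 kb it was 52.4% and 25% with BrafV600E in lines 1 and 3; at 100 kb it was 46.8% and 19.3%, and 15.4% in line 1 long culture. Far from all gene kinds it was 45.1% and 15.2% with BrafV600E and 13.9% and 49.4% in long culture. In line 3 long culture it was 58.1% at q under 0.001 and 51.2% with merged tiles. At 40 points or more, median gains and losses were 55 and -57.1 points with BrafV600E in line 1 and 59.1 and -59.1 in line 3, and 54.7 and -58.5 in line 1 and 57.9 and -58.9 in line 3 in long culture, since smaller changes were dropped. At q under 0.001 they were 47.0 and -49.4, and 51.5 and -51.9, with BrafV600E, and the line 1 long-culture loss was -53.4. Far from all gene kinds they were 50.0 and -50.1 with BrafV600E in line 3, and the line 1 long-culture loss was -54.0. With BrafV600E the direction matched between lines in 76.0% at 40 points or more and 66.7% far from all gene kinds. The cause was not tested. No paired analysis was possible because the deposited comparisons are already made within a line, 1 library against 1 library, and no values per library were used. Limits are the unknown depth, lists limited to 20 points or more, the lack of a background of tiles the assay could read, and 2 lines.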

Other observations

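Distal tiles inside the antigen receptor loci, which are annotated as gene spans of their own kind and are rearranged in lymphocytes, were mostly losses with BrafV600E in line 3. The immunoglobulin heavy chain locus Igh on chromosome 12 held 24 tiles, of which 1 gained and 22 lost in that comparison. The kappa light chain locus Igk on chromosome 6 held 22, with 1 gain and 15 losses, and the T cell receptor locus Tcra on chromosome 14 held 10, with 1 gain and 8 losses. The lambda locus Igl on chromosome 16 held 6, with no gain and 4 losses. These loci were looked up after the values were seen; over all distal tiles of that comparison 22.1% gained.

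The contrasts share no library, so a tile's direction can also be set side by side within a line. In line 1, 201 distal tiles were listed in both contrasts: 27 gained in both, 49 lost in both, 103 gained with BrafV600E and lost in long culture, and 22 did the reverse. In line 3, 730 were listed in both: 114 gained in both, 208 lost in both, 128 gained with BrafV600E and lost in long culture, and 280 did the reverse. The direction matched in 37.8% and 44.1%, against 48.9% and 52.1% of all autosomal tiles listed in both contrasts.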
